A study of Mus musculus with 16 samples.

Results

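The CC chemokine genes Ccl2, Ccl3, Ccl4, Ccl5, Ccl6, Ccl7, Ccl8, Ccl9, Ccl11 and Ccl12 were examined in the whole mouse uterus, 4 h after a single dose of dexamethasone or its vehicle. The genes were chosen by name, with earlier results of these data known, and their RefSeq accessions match probes on the array. They are a part of the family and make up 10 of the 24652 genes and unnamed targets that were tested. Of 11 other CC chemokine genes, 9 were also tested and are given further on as a separate list. Pups of both neonatal groups received 20 µl of corn oil on postnatal days 1 to 5, which in the genistein groups carried genistein at 50 mg/kg. Genistein is an isoflavone of soy and a ligand of estrogen receptors. The sample labels name the neonatal control treatment saline, whereas the design text gives corn oil, and these animals are called controls here. All mice lost their adrenals and ovaries at 6 weeks of age, so every group, the vehicle groups included, was without the glands that make most corticosterone and estrogen. Adults aged 8 weeks were given 1 mg/kg dexamethasone, a synthetic glucocorticoid, by intraperitoneal injection, or 100 µl of saline. The 4 groups, each with 4 one-colour arrays, are named here by neonatal and then adult treatment, from control vehicle to genistein dexamethasone. The series title poses the question whether genistein early in life changes how the adult uterus responds to glucocorticoids.

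CC chemokines are small secreted proteins, named for a pair of adjacent cysteines, that bind G protein-coupled receptors on white blood cells and direct where these cells move. Ccl2, Ccl7 and Ccl12 attract monocytes through Ccr2, Ccl3, Ccl4 and Ccl5 act on macrophages, T cells and natural killer cells, and Ccl11 attracts eosinophils through Ccr3. Transcription of many of them is switched on by NF-kappaB and interferon signalling, and glucocorticoids are known to lower it in many tissues.

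Levels are given as the log2 signal of a probe minus the log2 of the 75th percentile of signal on the same array, so 0 stands for the 75th percentile. All 10 genes were well above background on all 16 arrays and saturated on none. The weakest reading, of Ccl7, was still 1.39 times the dimmest detected signal of its array. Levels of different genes come from different probes and are not set against each other. The 75th percentile ran from 1987 to 2719 intensity units on the control dexamethasone arrays and from 948 to 2029 on the others, and arrays of one group correlated at 0.963 to 0.988 across genes. The arrays lay on 5 slides, 4 of which held several arrays. Control vehicle array 3 lay alone on slide 5, was scanned on another date and had the lowest 75th percentile. Slide 2 held only genistein arrays, so slide and neonatal treatment cannot be fully told apart. The genes Fkbp5, Tsc22d3, Per1 and Sgk1, standard glucocorticoid targets, rose in both dexamethasone comparisons (4 of 4). Of 15 uterus markers 14 were tested, among them the steroid receptor genes Esr1 and Pgr, with 2 rises and 1 fall in controls and 3 rises after genistein. Over all genes limma called 8.45% higher and 14.6% lower in controls, and 2.49% higher and 2.79% lower after genistein. The uterus marker counts in controls are thus near the background, and the 3 rises after genistein are above it. As no separate animals are named in the labels, the p-values speak only of variation among these arrays, which may be technical. In whole tissue, fewer cells of a type and less RNA per cell cannot be told apart.

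Dexamethasone lowered 7 of the 10 CC chemokine genes in controls and raised none by limma with a Benjamini-Hochberg adjusted p below 0.05. The shares of all tested genes called lower and higher in that comparison were 14.6% and 8.45%. With median scaling these shares were 7.56% and 13.9%, with quantile normalization 10.6% and 8.83% and with normexp background correction 9.85% and 9.15%, and the same count of 7 members fell and none rose under each of them. Ccl2, Ccl3, Ccl4, Ccl5, Ccl7, Ccl8 and Ccl12 fell, while Ccl6, Ccl9 and Ccl11 did not pass. After neonatal genistein 5 of 10 fell, namely Ccl2, Ccl3, Ccl4, Ccl7 and Ccl8, and none rose, where 2.79% of all genes were called lower and 2.49% higher. The median log2 difference over the 10 genes was -1.57 in controls and -1.38 after genistein, against -0.16 and -0.015 over all tested genes. In controls the dexamethasone arrays lay wholly below the vehicle arrays for 7 members, against 17.5% of all genes. After genistein they did so for 6 members, the 5 that fell and Ccl12, against 6.2% of all genes. Both comparisons were fitted together on all 16 arrays but share no array.

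**Figure D1:**
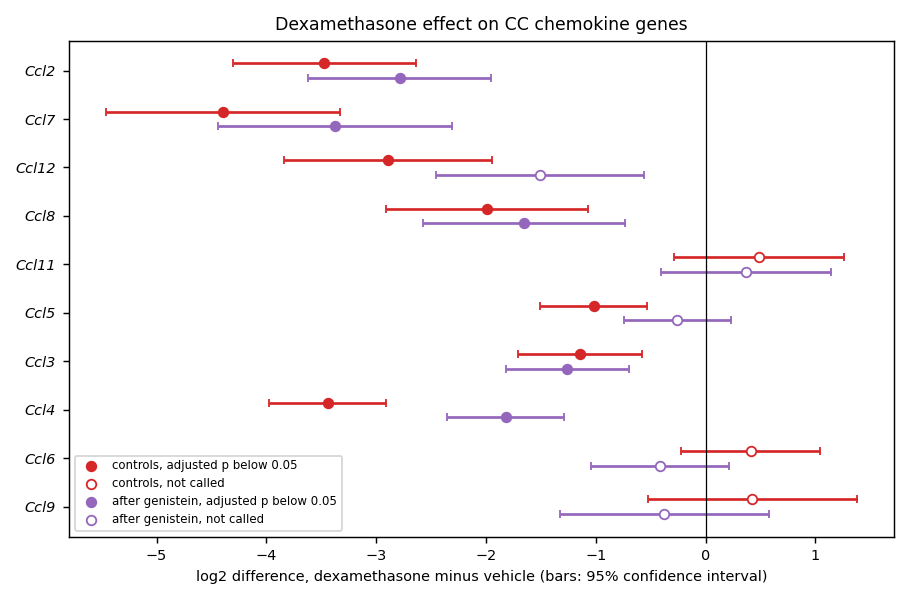
Log2 difference between dexamethasone and vehicle arrays for the 10 CC chemokine genes, in controls (red) and after neonatal genistein (purple), with 95% confidence intervals from limma and 4 arrays per group. Filled points have an adjusted p below 0.05: 7 in controls and 5 after genistein, all to the left of 0, while the intervals of Ccl6, Ccl9 and Ccl11 span 0 in both.

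Among the ligands of Ccr2, Ccl2, the main attractant of inflammatory monocytes, read 0.22, -1.20, -0.13 and 0.15 on control vehicle arrays 1 to 4. It read -3.67, -3.18, -4.52 and -3.47 on the control dexamethasone arrays. Genistein vehicle arrays gave -0.03, -1.25, -0.19 and -0.60, and genistein dexamethasone arrays gave -3.23, -2.93, -2.96 and -4.10. All 8 dexamethasone arrays lay below all 8 vehicle arrays, and the second array was the lowest of each vehicle group. Ccl2 fell by 3.47 (SE 0.39) in controls, to 9.02% of the vehicle level (limma adjusted p = 0.000114), and by 2.79 (SE 0.39) after genistein, to 14.5% (adjusted p = 0.000785). Within slides 1, 3 and 4 the difference in controls was -3.54, -2.47 and -4.67, and within slides 2, 3 and 4 the difference after genistein was -3.06, -2.32 and -2.86. The array carries 10 spots of the Ccl2 probe, which differed by a median SD of 0.0998 on an array. On 2 arrays the SD exceeded 0.2. On genistein dexamethasone array 1 the spots ran from -5.36 to -2.43 (SD 0.828), and on array 4 of that group from -4.53 to -3.74 (SD 0.244).

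Ccl7, which attracts monocytes and other leukocytes, had the largest fall of all tested genes in controls on this scale, with Ccl2 and Ccl4 at ranks 7 and 8. Control vehicle arrays read -0.36, -1.69, -1.08 and -0.41, and control dexamethasone arrays -5.05, -4.57, -6.21 and -5.29. After genistein the vehicle arrays read -0.86, -1.78, -1.17 and -1.83 and the dexamethasone arrays -4.27, -3.92, -4.58 and -6.36. Again no dexamethasone array reached any vehicle array, and the arrays of slide 4, control dexamethasone array 3 and genistein dexamethasone array 4, were the lowest. Ccl7 fell by 4.39 (SE 0.50, 21.0-fold, limma adjusted p = 0.000122) in controls and by 3.37 (SE 0.50, 10.4-fold, adjusted p = 0.00121) after genistein. A second probe of Ccl7 gave -4.30 and -3.02. The within-slide differences were -4.56, -3.37 and -5.80 on slides 1, 3 and 4 in controls and -3.57, -2.09 and -4.58 on slides 2, 3 and 4 after genistein. Both falls were smaller with normexp background correction, at -2.72 and -2.10, and stayed called.

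Ccl12, a further monocyte attractant that mice have beside Ccl2, read 0.39, -0.34, 0.31 and 0.55 in control vehicle arrays and -1.92, -1.98, -4.07 and -2.71 in control dexamethasone arrays. Its readings were 0.20, -0.24, -0.74 and -0.94 in genistein vehicle arrays and -1.56, -1.59, -1.73 and -2.86 in genistein dexamethasone arrays. The groups did not overlap in either comparison, and the arrays of slide 4 were again lowest under dexamethasone. Ccl12 fell by 2.89 (SE 0.44, 7.42-fold, limma adjusted p = 0.000908) in controls. After genistein the difference was -1.51 (SE 0.44, 95% interval -2.46 to -0.56), which missed the threshold (adjusted p = 0.0672). It passed with normexp (adjusted p = 0.0413), with only probes detected on all 16 arrays (0.0433) and with array weights (0.0026), over a range of 0.0026 to 0.17 in 21 alternatives. Within slides the differences were -2.73, -1.58 and -4.61 in controls and -1.84, -0.65 and -2.62 after genistein.

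**Figure D2:**
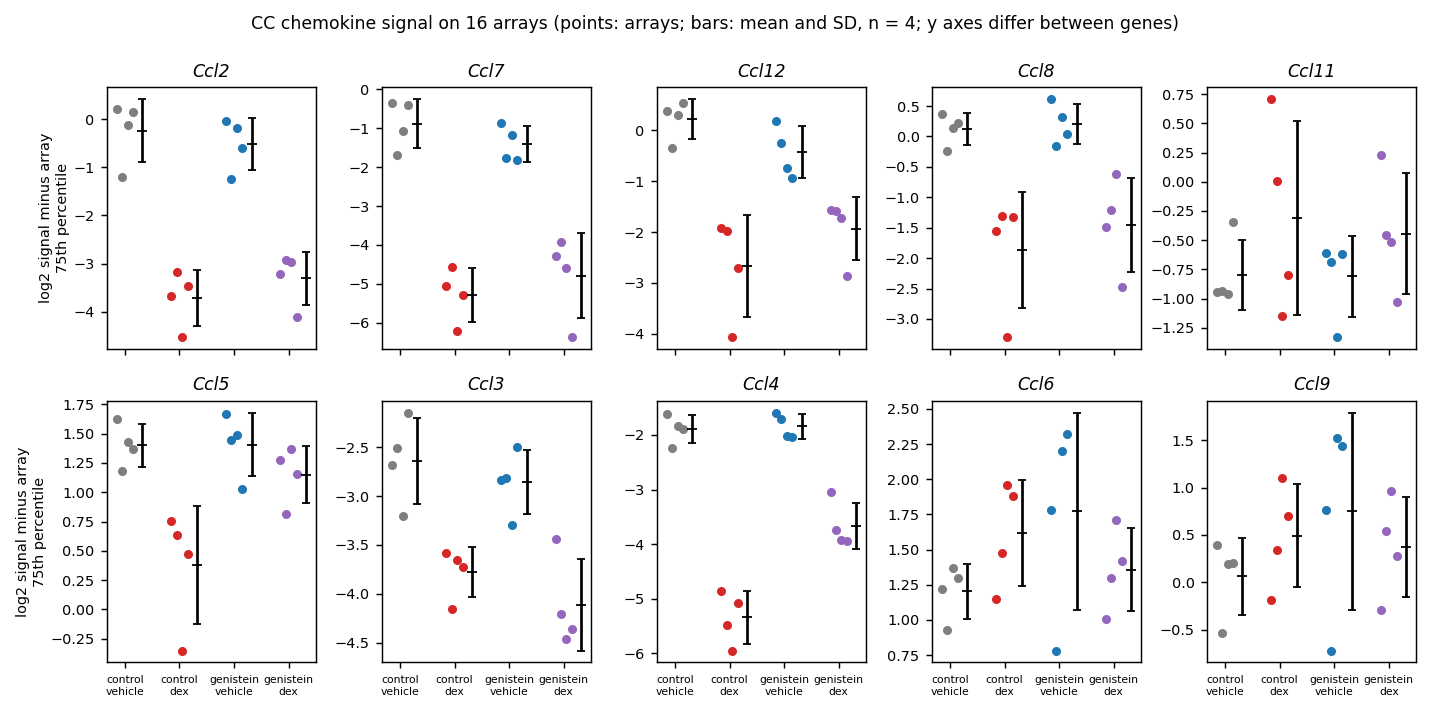
Scaled log2 level of each CC chemokine gene on every array (points), with the mean and SD of the 4 arrays of each group (bars), the y axis differing between genes. For Ccl2, Ccl7, Ccl12, Ccl8, Ccl3 and Ccl4 the dexamethasone arrays of a neonatal group lay below its vehicle arrays, for Ccl5 only those of the controls did, and for Ccl11, Ccl6 and Ccl9 the groups overlapped.

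Ccl8, which in mice acts on T cells and other leukocytes through Ccr8, stood at 0.37, -0.23, 0.13 and 0.22 on control vehicle arrays and at -1.55, -1.31, -3.29 and -1.32 on control dexamethasone arrays. It stood at 0.61, -0.15, 0.32 and 0.04 on genistein vehicle arrays and at -1.49, -1.21, -0.62 and -2.48 on genistein dexamethasone arrays. Vehicle and dexamethasone arrays did not overlap, and control dexamethasone array 3 lay far below the other arrays of its group. In controls Ccl8 fell by 1.99 (SE 0.43, 3.98-fold, limma adjusted p = 0.00623). After genistein it fell by 1.65 (SE 0.43, 3.15-fold, adjusted p = 0.0395), but 12 of 21 alternatives lost that call. It was lost without genistein vehicle arrays 1, 2, 3 or 4, at -1.52, -1.77, -1.62 and -1.71, and without genistein dexamethasone arrays 1, 2 or 4, at -1.64, -1.73 and -1.31, with adjusted p from 0.0539 to 0.106. Slides 1, 3 and 4 gave -1.69, -1.32 and -3.51 in controls, and slides 2, 3 and 4 gave -1.67, -1.25 and -2.32 after genistein.

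Ccl8 and Ccl12 are neighbours on chromosome 11, and their promoters are shown because both genes were lower on every dexamethasone array than on every vehicle array of the same neonatal group. This also held for Ccl3, whose promoter was available but is not shown. The 250 bases before the annotated start, from RefSeq on GRCm38.p6, were available for 5 of the 10 genes, here for Ccl12 at chr11:82101595-82101844 and Ccl8 at chr11:82114935-82115184, both on the plus strand. Capitals mark matches to a motif searched on both strands, here the TATA box letters TATAAA.
Ccl12: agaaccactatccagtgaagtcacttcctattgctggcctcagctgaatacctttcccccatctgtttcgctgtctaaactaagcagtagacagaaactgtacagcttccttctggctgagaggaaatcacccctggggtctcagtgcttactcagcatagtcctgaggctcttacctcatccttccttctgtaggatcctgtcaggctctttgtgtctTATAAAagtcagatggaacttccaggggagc
Ccl8: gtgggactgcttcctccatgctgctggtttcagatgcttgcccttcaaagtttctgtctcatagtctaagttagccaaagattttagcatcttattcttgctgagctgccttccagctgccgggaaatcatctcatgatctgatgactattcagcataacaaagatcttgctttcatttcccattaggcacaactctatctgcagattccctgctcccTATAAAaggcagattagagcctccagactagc
The TATA box letters lie 31 to 26 bases before the start in Ccl12 and 32 to 27 bases before it in Ccl8, counting the last printed base as 1. They occur in 12.4% of 32841 promoter windows of this length. The other 5 motifs searched were an NF-kappaB type (GGGA and CC with any 4 bases between, in 17.6% of windows), an AP-1 type (TGANTCA, 6.75%), a STAT type (TTCNNNGAA, 7.02%), an interferon response type (TTTC repeated after any 2 bases, 2.98%) and a glucocorticoid receptor type (AGAACA, 16.1%). None of these letters were in the Ccl8 or Ccl12 window. The Ccl3 window held none of the 6 motifs, the TATA box letters included. Aligned end to end, the pair shared 55.6% of columns, the highest of the 10 pairs among the 5 promoters, the others running from 43.7% to 50.4%. Both hold GGAAATCA from the same position, 128 bases before the start.

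Ccl11, the eotaxin gene whose product draws eosinophils into tissue, was called in neither dexamethasone comparison. Control vehicle arrays read -0.94, -0.93, -0.96 and -0.35, and control dexamethasone arrays 0.71, 0.005, -1.15 and -0.80. Genistein vehicle arrays read -0.61, -0.68, -1.33 and -0.62, and genistein dexamethasone arrays 0.23, -0.46, -0.51 and -1.03. The groups overlapped in both comparisons, and the 2 dexamethasone groups held both the highest and some of the lowest readings. The difference was 0.48 in controls (95% interval -0.29 to 1.26, limma adjusted p = 0.351) and 0.37 after genistein (-0.41 to 1.14, adjusted p = 0.682). Within slides it was 0.55, 1.64 and -0.80 in controls and 0.47, 0.16 and -0.35 after genistein, so its sign turned on slide 4 in both.

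Ccl4, an attractant of T cells and macrophages, read -1.62, -2.24, -1.84 and -1.89 on control vehicle arrays and -4.86, -5.48, -5.95 and -5.08 on control dexamethasone arrays. Genistein vehicle arrays read -1.60, -1.71, -2.03 and -2.04, and genistein dexamethasone arrays -3.05, -3.73, -3.92 and -3.95. The vehicle groups lay over one another, and the genistein dexamethasone arrays formed a separate band between them and the control dexamethasone arrays. Ccl4 fell by 3.44 (SE 0.25, 10.9-fold, limma adjusted p = 2.56e-06) in controls and by 1.82 (SE 0.25, 3.53-fold, adjusted p = 0.000697) after genistein. Slides 1, 3 and 4 gave -3.65, -2.62 and -4.06, and slides 2, 3 and 4 gave -1.89, -1.70 and -2.24. With normexp the fall in controls was 1.94 in size and stayed called. The control dexamethasone readings of Ccl4 were low, from 40.6 to 93.4 intensity units. Its lowest ratio to the dimmest detected signal of an array was 2.75, so the size of this fall depends on how background is treated.

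Ccl3, which acts through Ccr1 on macrophages and lymphocytes, had nearly the same difference in both neonatal groups. It read -2.68, -2.51, -3.20 and -2.15 on control vehicle arrays and -3.58, -4.16, -3.65 and -3.72 on control dexamethasone arrays. After genistein it read -2.83, -2.81, -3.29 and -2.50 under vehicle and -3.43, -4.20, -4.47 and -4.36 under dexamethasone. The groups did not overlap in either comparison, although the nearest arrays after genistein were only a short distance apart. Ccl3 fell by 1.14 (SE 0.26, 2.21-fold, limma adjusted p = 0.00837) in controls and by 1.26 (SE 0.26, 2.39-fold, adjusted p = 0.0127) after genistein. With normexp the sizes were -0.58 and -0.70, both called. The call in controls ended without control dexamethasone arrays 2 and 3 (-1.02, adjusted p = 0.0584) and without the 4 arrays of slide 4 (-1.02, 0.0582). The call after genistein ended without slide 4 (-1.16, adjusted p = 0.101) and when only the arrays compared were fitted (0.0579). Within slides Ccl3 gave -1.25, -1.07 and -1.50 in controls and -1.12, -1.71 and -1.55 after genistein.

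Ccl5, a product of T cells and natural killer cells that attracts further T cells, read 1.62, 1.18, 1.43 and 1.37 on control vehicle arrays and 0.76, 0.64, -0.35 and 0.47 on control dexamethasone arrays. Genistein vehicle arrays read 1.67, 1.44, 1.49 and 1.03, and genistein dexamethasone arrays 1.27, 0.81, 1.37 and 1.15. The control groups did not overlap, with dexamethasone array 3 well below the rest, whereas the genistein groups did. Ccl5 fell by 1.02 (SE 0.23, 2.03-fold, limma adjusted p = 0.00706) in controls, and after genistein the difference was -0.26 (95% interval -0.74 to 0.23, adjusted p = 0.637). Slides 1, 3 and 4 gave -1.07, -0.42 and -1.72 in controls, and slides 2, 3 and 4 gave -0.35, -0.22 and -0.29 after genistein.

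Ccl6 and Ccl9, mouse chemokines made largely by macrophages and other myeloid cells that signal through Ccr1, were called in no comparison, and their levels spanned up to 1.54 and 2.23 among the 4 arrays of one group. Ccl6 read 1.22, 0.93, 1.37 and 1.30 on control vehicle arrays, 1.15, 1.48, 1.96 and 1.88 on control dexamethasone arrays, 1.78, 0.78, 2.20 and 2.32 on genistein vehicle arrays and 1.00, 1.29, 1.71 and 1.42 on genistein dexamethasone arrays. Ccl9 read 0.39, -0.53, 0.19 and 0.20, then -0.18, 0.34, 1.10 and 0.70, then 0.76, -0.72, 1.52 and 1.44, and then -0.29, 0.54, 0.96 and 0.28 in the same order. All groups overlapped, and genistein vehicle array 2 was the lowest array of its group for both genes. The dexamethasone difference of Ccl6 was 0.41 in controls (95% interval -0.22 to 1.04, limma adjusted p = 0.33) and -0.41 after genistein (-1.05 to 0.22, adjusted p = 0.527). That of Ccl9 was 0.43 (-0.53 to 1.38, adjusted p = 0.518) and -0.38 (-1.33 to 0.58, adjusted p = 0.753). In controls both were positive within slides 1, 3 and 4, at 0.45, 0.22 and 0.66 for Ccl6 and 0.13, 0.35 and 0.89 for Ccl9. After genistein the sign turned between slides, with -0.42, -1.03 and 0.64 for Ccl6 and -0.42, -0.90 and 1.00 for Ccl9 on slides 2, 3 and 4.

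Over the 16 arrays, after each group's mean was removed, Ccl6 and Ccl9 had the highest correlation of any pair of the 10 genes, 0.97. Their promoters are shown for this likeness, for Ccl9 at chr11:83578637-83578886 and Ccl6 at chr11:83593088-83593337, both on the minus strand and printed 5′ to 3′, with motif matches on either strand in capitals.
Ccl9: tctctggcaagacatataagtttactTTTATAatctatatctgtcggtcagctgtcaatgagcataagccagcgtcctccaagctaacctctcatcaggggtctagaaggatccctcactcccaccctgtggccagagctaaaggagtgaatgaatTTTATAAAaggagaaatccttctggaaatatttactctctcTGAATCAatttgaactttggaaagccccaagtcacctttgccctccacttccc
Ccl6: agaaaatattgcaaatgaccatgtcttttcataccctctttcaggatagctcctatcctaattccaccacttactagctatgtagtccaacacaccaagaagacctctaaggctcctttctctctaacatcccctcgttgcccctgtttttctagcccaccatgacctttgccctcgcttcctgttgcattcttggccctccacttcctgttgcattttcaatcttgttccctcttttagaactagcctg
Ccl9 holds 3 matches to TATAAA, the nearest 92 to 87 bases before the start and overlapping one on the other strand, and an AP-1 type match, TGAATCA, 53 to 47 bases before it. The Ccl6 window holds none of the 6 motifs. End to end the pair shared 47.2% of aligned columns, within the range of the other pairs. Its longest shared run, GCCCTCCACTTCC, is 13 bases long and starts 55 bases before the start in Ccl6 and 14 bases before it in Ccl9.

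No CC chemokine gene passed the test of the difference between the dexamethasone effects of the neonatal groups, and neither did any of the 24652 genes and targets (0%). At an unadjusted p below 0.05 there were 3 of 10 members, Ccl4, Ccl5 and Ccl12, and 3830 of all genes, or 15.5%. The fall of Ccl4 was smaller after genistein by 1.62 (95% interval 0.86 to 2.38, limma adjusted p = 0.162), that of Ccl12 by 1.38 (0.04 to 2.73, adjusted p = 0.312) and that of Ccl5 by 0.76 (0.08 to 1.45, adjusted p = 0.282). Over 29 alternatives the difference for Ccl4 ran from 0.63, with normexp, to 1.78, and its adjusted p from 0.0695 to 0.423. For Ccl2 and Ccl7 the difference was 0.68 (-0.49 to 1.86) and 1.02 (-0.49 to 2.52), and for Ccl3 it was -0.12 (-0.91 to 0.68).

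Neonatal genistein alone, compared under vehicle, called none of the 10 genes by limma, and none reached an unadjusted p below 0.05, against 1 of all genes called (0.00406%) and 3427 at the unadjusted level. The largest differences were 0.68 for Ccl9 (95% interval -0.27 to 1.64) and -0.65 for Ccl12 (-1.61 to 0.30). For Ccl4 and Ccl5 they were 0.06 (-0.48 to 0.59) and 0.01 (-0.48 to 0.49). Within slides 1, 3 and 4 Ccl12 was lower after genistein each time, at -1.12, -0.60 and -0.79, while Ccl9 gave 1.12, 1.97 and -0.92. The difference of Ccl9 was 1.17 without genistein vehicle array 2, 0.43 and 0.45 without arrays 3 and 4 of that group and -0.045 without both of these, and it reached 1.22 without slide 4.

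Under dexamethasone, 2 of 10 members were higher after genistein than in controls and none was lower, where 16.5% of all genes were called higher and 6.39% lower, so this share is near the background. Median scaling gave 10.6% higher and 8.23% lower with 1 member higher, quantile normalization 12.9% and 9% with 2 and normexp 11.6% and 8.04% with 2. With array weights, where 11036 of all genes were called, Ccl3 was called lower after genistein (-0.61, limma adjusted p = 0.0298). Ccl4 was higher by 1.68 (SE 0.25, 3.20-fold, limma adjusted p = 0.00283) and Ccl5 by 0.77 (SE 0.23, 1.71-fold, adjusted p = 0.0279), and these were also the 2 members whose groups did not overlap, against 19.6% of all genes. This comparison uses the same control dexamethasone arrays as the fall in controls. With normexp Ccl4 was higher by 0.69, still called. The Ccl5 call was lost in 10 of 21 alternatives. It ended without control dexamethasone arrays 3 or 4, at 0.53 (adjusted p = 0.0686) and 0.80 (0.0502), and without genistein dexamethasone arrays 1, 3 or 4, at 0.73 (0.054), 0.70 (0.0763) and 0.77 (0.054). It also ended with slide as a fixed block (0.74, adjusted p = 0.0618), with median scaling (0.65, 0.0634), with only the arrays compared (0.77, 0.0675), without control dexamethasone arrays 2 and 3 (0.53, 0.126) and without slide 4 (0.53, 0.165). Within slides 3 and 4 the difference was 1.13 and 2.00 for Ccl4 and 0.05 and 1.51 for Ccl5.

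Some arrays were low for many of the genes at once. Control vehicle array 2 was the lowest of its group for 8 of 10 members, control dexamethasone array 3 for 7 and genistein dexamethasone array 4 for 6. The latter pair lay on slide 4 and were lowest for Ccl2, Ccl4, Ccl7, Ccl8, Ccl11 and Ccl12 alike. Of the vehicle arrays of slide 4, control vehicle array 4 was lowest for 0 members and highest for 3, and genistein vehicle array 2 was lowest for Ccl2, Ccl6, Ccl8 and Ccl9. The part of the slide in this was not tested. With group means removed, the correlations over 16 arrays were 0.88 for Ccl2 with Ccl7, 0.83 for Ccl2 with Ccl8, 0.83 for Ccl7 with Ccl12 and 0.82 for Ccl8 with Ccl12, and the lowest was -0.51 for Ccl6 with Ccl11. These describe arrays that share slides and scaling.

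**Figure D3:**
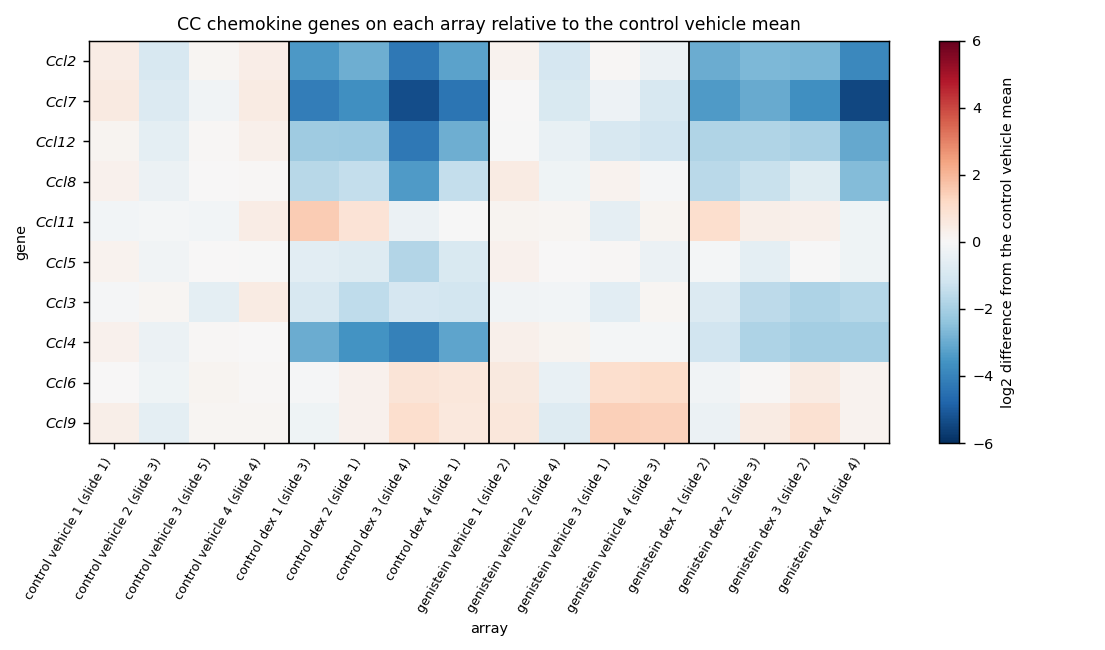
Log2 difference of each CC chemokine gene on each of the 16 arrays from its control vehicle mean, with blue for lower and red for higher, arrays grouped by treatment and named with their slide. Ccl2, Ccl7, Ccl12 and Ccl8 are blue on all 8 dexamethasone arrays and darkest on control dexamethasone array 3 and genistein dexamethasone array 4, both of slide 4, while Ccl6 and Ccl9 share their pattern of pale red and blue.

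On chromosome 11, in RefSeq's GRCm38.p6 annotation, the 10 genes form a pair of runs. Ccl2, Ccl7, Ccl11, Ccl12 and Ccl8 follow one another with no other protein-coding gene between them, and 26 protein-coding genes further on come Ccl5, Ccl9, Ccl6, Ccl3 and Ccl4, again without interruption. In controls 4 of 5 genes in the first run fell, Ccl11 in its middle being the exception, and 3 of 5 in the second run, where Ccl9 and Ccl6 lie side by side between Ccl5 and Ccl3. Over all genes 14.6% were called lower in that comparison, and 7.56% with median scaling.

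Of 14 genes for CC chemokine receptors and scavengers, 12 were tested, and in controls 5 fell and 1 rose, with a median difference of -0.90. Over all genes 14.6% were called lower and 8.45% higher in controls and the median difference was -0.16, so 1 rise among 12 is near the background. After genistein the shares over all genes were 2.79% and 2.49%, and these shares stand beside the counts of the other gene lists too. Ccr1, the receptor of Ccl3, Ccl6 and Ccl9, and Ccr8 were well above background on no array. Ccr3, the receptor of Ccl11, read from -4.72 to -3.78 on control vehicle arrays and from -6.17 to -5.43 on control dexamethasone arrays, falling by 1.60 (limma adjusted p = 0.000765), although Ccl11 itself was not called. After genistein it fell by 1.08 (adjusted p = 0.0181), and vehicle and dexamethasone arrays did not overlap in either comparison. Ccr2, the receptor of Ccl2, Ccl7 and Ccl12, fell by 1.20 (adjusted p = 0.0305) in controls and gave -0.90 (adjusted p = 0.196) after genistein. Ackr1, which binds chemokines on vessel walls, fell by 1.19 in controls. Ackr4, a scavenger of Ccl19, Ccl21 and Ccl25, rose by 1.29 in controls and by 0.93 after genistein. After genistein 2 of the 12 fell and 1 rose.

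**Figure D4:**
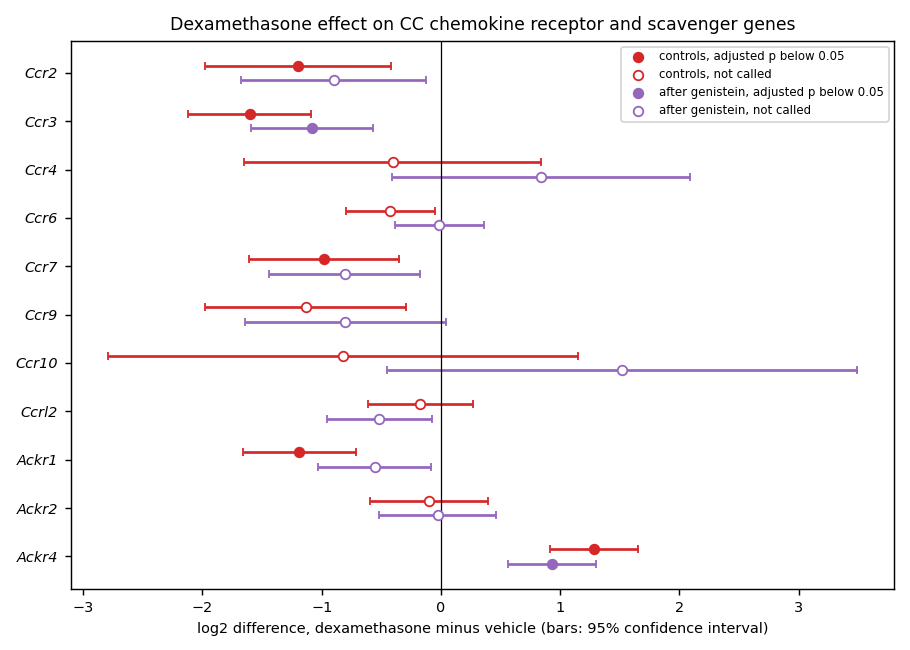
Log2 difference between dexamethasone and vehicle arrays for 11 genes of CC chemokine receptors and scavengers, in controls (red) and after neonatal genistein (purple), with 95% confidence intervals from limma and 4 arrays per group. Filled points have an adjusted p below 0.05: Ccr3 lies left of 0 and Ackr4 right of 0 in both, and Ccr2, Ccr7 and Ackr1 are filled in controls.

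Of 9 other CC chemokine genes tested, 3 fell and 1 rose in controls and 1 fell after genistein. Ccl21a, which brings cells to lymphatic vessels through Ccr7, fell by 1.38 and 1.34, and Ccl28, a mucosal chemokine, fell by 0.80 in controls and gave 0.32 after genistein (limma adjusted p = 0.434). In controls Ccl27a, a skin-type chemokine gene, fell by 0.68 and Ccl25, a gut and thymus chemokine gene, rose by 0.68. Of 25 genes for inducers of CC chemokines and their signalling, 9 fell and 1 rose in controls, and 3 fell after genistein. The cytokine gene Il1b fell by 3.59 and 3.36, Tnf by 1.94 and 1.15 and the NF-kappaB subunit gene Relb by 1.34 and 0.95, while the interferon gene Ifng fell by 2.18 in controls. Of 17 genes for inhibitors, 4 rose and 3 fell in controls and 5 rose and 2 fell after genistein. In controls the bound for Il10, an anti-inflammatory cytokine gene, was at least 1.63-fold lower under dexamethasone, where no array had it well above background. Only 2 of the 4 control vehicle arrays had it well above background, so this bound rests partly on undetected readings. After genistein Il1rn, the interleukin-1 antagonist gene, fell by 2.65. Those that rose in both comparisons were Tsc22d3 (2.42 and 2.40), the phosphatase gene Dusp1 (2.38 and 1.98), the NF-kappaB inhibitor gene Nfkbia (0.72 and 1.08) and Zfp36, whose protein destabilises cytokine messages (0.66 and 1.18). The inhibitor gene Nfkbie instead fell in both, by 0.99 and 1.06.

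Some markers of white blood cells differed with the treatment as well, and their part in the chemokine differences was not tested. Over all genes 14.6% were called lower and 8.45% higher in controls, so single calls in a list there are near the background. For monocytes and macrophages, 3 of 15 markers rose and 3 fell in controls, and 1 rose and 4 fell after genistein. Their summed signal, in multiples of the 75th percentile, was 27.1 to 33.1 on control vehicle, 22.9 to 27.8 on control dexamethasone, 30.3 to 49.1 on genistein vehicle and 25.8 to 33.3 on genistein dexamethasone arrays. Sums of this kind add different probes and follow the brightest of a list most, so they do not measure a cell type. On control vehicle arrays the brightest was Ly6c2 here, at a mean of 3.48, and S100a9 among the neutrophil markers, at 1.18. The macrophage genes Adgre1 and Csf1r gave -0.11 and 0.21 in controls and were not called, while Cx3cr1 and Fcgr1 fell by 2.29 and 1.80 and Cd163 rose by 3.19. After genistein Adgre1 and Csf1r were lower too, with means of 1.44 and 0.02 under vehicle and 0.53 and -0.55 under dexamethasone. There Cx3cr1 went from -1.93 to -3.09, Fcgr1 from 0.73 to -0.88 and Cd163 from -4.70 to -2.58. Of 9 neutrophil markers tested, 6 fell and 1 rose in controls and 6 fell after genistein, with sums of 3.13 to 4.18, 0.743 to 1.65, 2.63 to 5.01 and 0.613 to 1.15 in the same order of groups. Of 12 T and natural killer cell markers, 8 fell and none rose in controls, and 1 rose and none fell after genistein. Their sums were 2.37 to 2.88, 1.21 to 2.00, 2.18 to 3.25 and 2.38 to 2.96, so the control dexamethasone arrays lay apart from the other groups, as they did for Ccl5. Of 5 eosinophil markers tested, 1 fell in controls, which was Ccr3, already counted among the receptors, and 2 fell after genistein, Ccr3 among them. Their sums were 0.55 to 0.756, 0.448 to 0.832, 0.574 to 1.69 and 0.674 to 0.912. The granule gene Epx was above background on only 3 arrays. Of 9 adipocyte markers, 6 rose in controls, with sums of 3.81 to 28.8 on vehicle and 16.5 to 234.7 on dexamethasone arrays. After genistein none was called, with sums of 23.1 to 78.4 on vehicle and 12.4 to 82.9 on dexamethasone arrays. These sums varied widely within each group, vehicle groups included. Mast cell markers had 1 rise among 7 in controls and ovary and oviduct markers 1 fall among 7, while after genistein these lists had no call and 1 rise.

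By Pearson correlation of log2 signal over the 16 arrays, genes among the 3 most like Ccl2 were the secreted Wnt modulator gene Sfrp4 (0.97) and the interferon-induced gene Gbp2 (0.97). Those most like Ccl5 were Ackr1 (0.95), the cytotoxic granule gene Nkg7 (0.94) and the transcription factor gene Nfic (0.93). For Ccl11 the highest values were lower, with Prok2, which encodes a secreted prokineticin, at 0.84, Bclaf1 at 0.84 and Zscan22 at 0.83. These values include the differences between groups.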

How the data were processed

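Whole uterus RNA, 400 ng per sample, was labelled with Cy3 and hybridised to 16 Agilent arrays of design 014868, 1 sample each. Per the file headers, the deposited values are spot intensity on a linear scale, background-subtracted by Agilent Feature Extraction 12.0.0.7, and the submitters' processing notes name version 9.5. The deposited value table holds the same values (largest difference 0). Spot flags, 0 or 1 per the file headers, are values of another kind and served as filters.

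The log2 of intensity minus that of each array's 75th percentile was used. Outlier spots were set to missing, spots of a probe averaged, and 807 probes with a missing value dropped. A probe was kept if at least 4 of 16 arrays showed it well above background, and the brightest stood for its gene. RefSeq accessions named 28223 of 29245 RefSeq probes (GRCm38.p6). Of the 24652 genes and targets, 16529 had a symbol.

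Group means of the 4 groups were estimated from the 16 arrays jointly (limma 3.58.1, R 4.3.3), with two-sided p-values adjusted by Benjamini-Hochberg over all genes in each of 5 comparisons. It was tested on simulated data. All 10 members are described. A bound ("at least") sets the brighter group's mean against the dimmer group's mean, raised on each array to the dimmest detected signal. From each further list at most 5 called genes with the largest changes are named, and Adgre1, Csf1r, Nfkbia, Nfkbie, Ccr1, Ccr7, Ccr8 and Epx were added after their values were seen. The members and lists were chosen with earlier results of these data known. Alternatives covered scaling, background correction (normexp with offset 50 on median signals), filters, probe choice, slide and replicate blocks, array weights and left-out arrays. Leaving out slide 4 was added after seeing the data. Of 24 pairs of same-numbered arrays, 8 correlated above 0.1, so the numbers were not taken as pairs. Promoters come from RefSeq, and pairs were aligned with Biopython 1.88. Figures used matplotlib 3.10.9 in Python 3.11.15. Some genes that the lists or the naming rule include are not reported here by name. The number of arrays, 4 per group, limits the precision.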

Additional observations from a re-analysis of the deposited data

Results flagged for a closer look

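In 4 of the 40 sets of 4 arrays (10 genes in 4 groups), 1 array stood apart from the other 3 by Dixon's criterion for the ratio of gap to range. Chance gives such a result in about 1 of 20 sets. Ccl8 on control dexamethasone array 3, at -3.29, had a ratio of 0.880. Ccl12 on genistein dexamethasone array 4, at -2.86, had a ratio of 0.867, and both arrays lay on slide 4. Ccl11 stood apart on control vehicle array 4, at -0.35 with a ratio of 0.956, and on genistein vehicle array 3, at -1.33 with a ratio of 0.903.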

How the results depend on the processing

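Of the member values called in a comparison, 268 of 294 alternatives kept the call and the direction, 26 lost the call and none turned the direction. Of 836 alternatives of values not called, 4 gained a call, and in 46 cases, over 14 values, the sign turned without any call. The count of 7 falls in controls moved by less than 1.5 times, and the counts of 0 for the difference of the effects and for genistein under vehicle stayed at 0, in the alternatives run. After genistein the count of 5 became 3 when only the arrays compared were fitted. Under dexamethasone the count of 2 became 1 with median scaling, with slide as a fixed block, with only the arrays compared, without control dexamethasone arrays 2 and 3 and without slide 4, and ran from 1 to 2 when single arrays were left out.

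The replicate block left 7 and 4 falls in the dexamethasone comparisons and 2 rises under dexamethasone. Same-numbered arrays correlated from -0.368 to 0.378, and 15 of 48 best matches had the same number. Over all genes, the 5669 calls in controls became 3107 without control vehicle array 1, 3565 without control dexamethasone array 4, 3585 without arrays 2 and 3 of that group and 3411 without slide 4. The 1303 after genistein became 831 with slide as a fixed block, 571 with only the arrays compared, 6065 with array weights, 862, 835 and 719 without genistein vehicle array 1 and genistein dexamethasone arrays 2 and 3, and 484 without slide 4. The 5654 under dexamethasone became 11036 with array weights, 3379 and 3531 without control dexamethasone arrays 3 and 4, 3293 without genistein dexamethasone array 3, 2394 without control dexamethasone arrays 2 and 3 and 952 without slide 4. The 0 of the difference of the effects became 96 with array weights and at most 1 otherwise, and the 1 under vehicle ran from 0 to 2. The cause was not tested. Median scaling moved the median over all genes in controls from -0.16 to 0.0683. The weakest reading of Ccl7, 16.1 intensity units on genistein dexamethasone array 4, lies close to background, at 1.39 times the dimmest detected signal. The other dexamethasone arrays read from 33.8 to 117.9 units. Such low readings limit the size of its fall.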
